A study of Mus musculus with 4 samples.

Results

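The killer cell lectin-like receptors are C-type lectin-like proteins of the cell surface, most of them encoded side by side in the natural killer gene complex of mouse chromosome 6. Members were taken by gene symbol, as every symbol beginning with Klra, Klrb, Klrc, Klrd, Klre, Klrg, Klri or Klrk, which gave 26 of the 27998 genes listed in the matrices. Of these, 25 had at least 20 UMIs (unique molecular identifiers, each standing for 1 captured transcript) over the cells kept, and Klra10 had 12.

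The study profiled CD45+ leukocytes of the nasal mucosa of C57BL/6 mice aged 8 weeks by droplet single-cell RNA sequencing, with 1 library for each of 4 groups. The Vehicle and Ribavirin groups received a vehicle or ribavirin, an antiviral drug, without ovalbumin. The Vehicle-OVA and Ribavirin-OVA groups were also sensitised to and challenged through the nose with ovalbumin (OVA), the allergen of this model of allergic rhinitis. The number of mice behind a library is not stated, the labels give magnetic sorting of CD45+ cells where the series text gives flow sorting, and a group of 1 library has no replicate, so that no test between groups was possible.

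In natural killer (NK) cells, the family holds the receptors that read self. The Ly49 receptors (Klra genes) bind classical MHC class I, CD94 (Klrd1) pairs with an NKG2 protein (Klrc genes) to bind the non-classical molecule Qa-1, and NKR-P1 receptors (Klrb1 genes) bind Clr proteins. Inhibitory members carry an ITIM that recruits phosphatases such as SHP-1, activating members signal through the adaptors DAP12, DAP10 or the Fc receptor gamma chain, and NKG2D (Klrk1) binds ligands that stressed cells display. T cells express several of these receptors after activation.

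Of 79132 deposited barcodes, 66230 cells were kept, with a median of 3363 to 5064 UMIs per cell by library. Pairs of libraries shared 57 to 174 barcodes. The family drew 44494 UMIs in Vehicle, 17053 in Vehicle-OVA, 39691 in Ribavirin and 16881 in Ribavirin-OVA, or 332, 196, 290 and 210 CPM (counts scaled to a common total). Every CPM value is the UMIs of a gene relative to all UMIs of the cells named, counted at the 3' end and therefore not divided by length, and the 95% intervals in parentheses cover counting error only. Wherever 4 values of a gene follow each other, their order is Vehicle, Vehicle-OVA, Ribavirin, Ribavirin-OVA. Because these are sums over a class of cells, a lower level can mean fewer positive cells or less RNA in each.

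Cells were placed into 11 classes by 6 markers each, none of them a member of the family. The NK-like class (Ncr1, Eomes, Gzma, Prf1, Il2rb, S1pr5, and no Cd3 UMI) held 471 cells in Vehicle, 76 in Vehicle-OVA, 456 in Ribavirin and 128 in Ribavirin-OVA. High NK markers and absent Cd3 genes follow from this choice, so they do not check the label. Nkg7, a granule gene of cytotoxic lymphocytes that was not used, stood at 1795 CPM in the class against 407 CPM in T cell-like cells and at most 14.0 CPM in any other named class. Markers of other cells were present at low levels that differed by library: those of ILC2 summed to 106, 167, 77.9 and 143 CPM (Vehicle, Vehicle-OVA, Ribavirin, Ribavirin-OVA) and those of neutrophils to 32.8, 160, 68.6 and 78.2 CPM, with 2 to 5 of the 6 ILC2 markers and 0 of the 6 neutrophil markers at 0. The lists of the other classes summed to at most 83.2 CPM. Their part in the values below was not tested. The class did not coincide with a cluster, since the NK-like Leiden cluster of 2773 cells took in 1103 NK-like cells and also 1385 T cell-like cells.

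The promoters of 4 Ly49 genes are shown because these close paralogs were highest in different classes of cells: Klra4 and Klra8 in NK-like cells, Klra17 in plasmacytoid dendritic cell (pDC)-like cells and Klra2 in macrophage or monocyte-like cells (over all libraries together, since in both OVA libraries Klra2 was higher in neutrophil-like cells). Each sequence runs 5' to 3' on the minus strand of chromosome 6 from 250 bases before to 50 bases after the RefSeq start (GRCm38.p6), and capitals mark the 190 positions that are the same in all 4 in a multiple alignment.
Klra4 (chr6:130067222-130067521): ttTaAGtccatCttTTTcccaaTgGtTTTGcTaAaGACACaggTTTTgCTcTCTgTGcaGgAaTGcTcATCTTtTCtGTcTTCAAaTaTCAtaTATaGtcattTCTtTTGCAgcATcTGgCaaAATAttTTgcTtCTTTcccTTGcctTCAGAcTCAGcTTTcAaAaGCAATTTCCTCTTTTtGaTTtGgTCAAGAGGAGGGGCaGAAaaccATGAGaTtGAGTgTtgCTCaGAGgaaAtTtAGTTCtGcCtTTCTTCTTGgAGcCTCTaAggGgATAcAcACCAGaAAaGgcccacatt
Klra8 (chr6:130129849-130130148): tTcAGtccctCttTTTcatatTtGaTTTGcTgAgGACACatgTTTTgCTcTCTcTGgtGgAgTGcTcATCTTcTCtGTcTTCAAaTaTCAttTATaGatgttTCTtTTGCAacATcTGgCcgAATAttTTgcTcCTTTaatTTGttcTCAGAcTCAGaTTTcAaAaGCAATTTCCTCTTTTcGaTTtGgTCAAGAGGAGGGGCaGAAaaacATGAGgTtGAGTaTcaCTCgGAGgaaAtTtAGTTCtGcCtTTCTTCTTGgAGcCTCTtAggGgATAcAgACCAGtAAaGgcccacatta
Klra17 (chr6:129876623-129876922): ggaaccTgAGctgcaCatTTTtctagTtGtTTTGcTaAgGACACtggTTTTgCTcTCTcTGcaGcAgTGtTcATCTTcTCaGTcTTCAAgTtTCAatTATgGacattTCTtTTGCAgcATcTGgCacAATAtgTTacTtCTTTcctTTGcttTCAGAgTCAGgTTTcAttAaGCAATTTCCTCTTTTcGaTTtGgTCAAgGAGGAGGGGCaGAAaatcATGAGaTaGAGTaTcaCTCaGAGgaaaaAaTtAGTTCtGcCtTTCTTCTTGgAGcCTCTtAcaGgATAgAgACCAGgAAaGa
Klra2 (chr6:131247313-131247612): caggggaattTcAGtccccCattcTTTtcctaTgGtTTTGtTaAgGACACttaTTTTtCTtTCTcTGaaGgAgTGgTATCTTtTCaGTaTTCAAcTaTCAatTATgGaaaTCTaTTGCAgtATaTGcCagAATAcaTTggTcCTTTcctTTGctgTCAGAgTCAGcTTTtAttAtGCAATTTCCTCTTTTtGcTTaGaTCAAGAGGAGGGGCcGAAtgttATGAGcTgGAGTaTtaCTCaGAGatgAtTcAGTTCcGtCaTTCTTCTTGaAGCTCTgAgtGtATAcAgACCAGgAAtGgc
The Klra4 window was 86.6% identical to that of Klra8 and 83.2% identical to that of Klra17. Klra2 was the most distant of the 4, at 75.7 to 77.1% identity to the others. Over the 23 members with a RefSeq promoter entry, GAGGAA, letters like those of ETS family sites, was found on either strand in 13 (56.5%) against 28.3% of all 27025 promoters of this length. These include the paralogs Klra2, Klra3, Klra4, Klra5, Klra6, Klra8, Klra9 and Klra17, so the members are not independent cases. TGTGGT, a RUNX core, was found in 8 (34.8%, against 16.9%), CTTTGA, a TCF core, in 6 (26.1%, against 16.2%), and AGGTGT, a T-box core, in 1, that of Klrb1 (4.35%, against 13.9%). All 4 sequences above hold GAGGAA on the other strand, as TTCCTC within a stretch shared by all 4, so having these letters did not separate the genes by class. Klra4, Klra8 and Klra17 also hold GAGGAA on the printed strand, where Klra2 has GAGATG.

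All 26 members lie on chromosome 6 in the GENCODE M21 annotation (GRCm38). The Klrb, Klrc, Klrd, Klre, Klri, Klrk and Klra genes run from Klrb1a (chr6:128609227-128623533) to Klra2 (chr6:131219223-131247362), and Klrg1 (chr6:122270596-122282882) and Klrg2 (chr6:38625693-38637242) lie apart from them. Since the members arose by duplication, their 3' ends were compared in runs of 60 bases. Klra9 shared 38.7% of such runs with another gene, not always a member, Klrc1 37.5%, Klra10 32.4%, Klra3 21.2% and Klrb1b 20.4%, and values of these genes are uncertain to the extent that the counting could not split their reads. Klrd1, Klrk1, Klre1, Klrb1f, Klrg1, Klra2 and Klra17 shared none.

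To determine which cells carried the family, its UMIs were summed by class. NK-like cells made up 1131 of the 66230 cells and held 27.5% (27.2 to 27.8) of the family's UMIs, at 6581 CPM in Vehicle, 6142 in Vehicle-OVA, 6334 in Ribavirin and 6495 in Ribavirin-OVA. That came to 28.7 family UMIs per NK-like cell, against 2.02 per T cell-like cell. T cell-like cells, which were 13045 in number, held 22.3% of the family's UMIs at 363 CPM. Conventional dendritic cell (cDC)-like cells stood at 474 CPM, pDC-like cells at 440, macrophage or monocyte-like cells at 156, type 2 innate lymphoid cell (ILC2)-like cells at 144, neutrophil-like cells at 111 and B cell-like cells at 22.9 CPM.

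**Figure D1:**
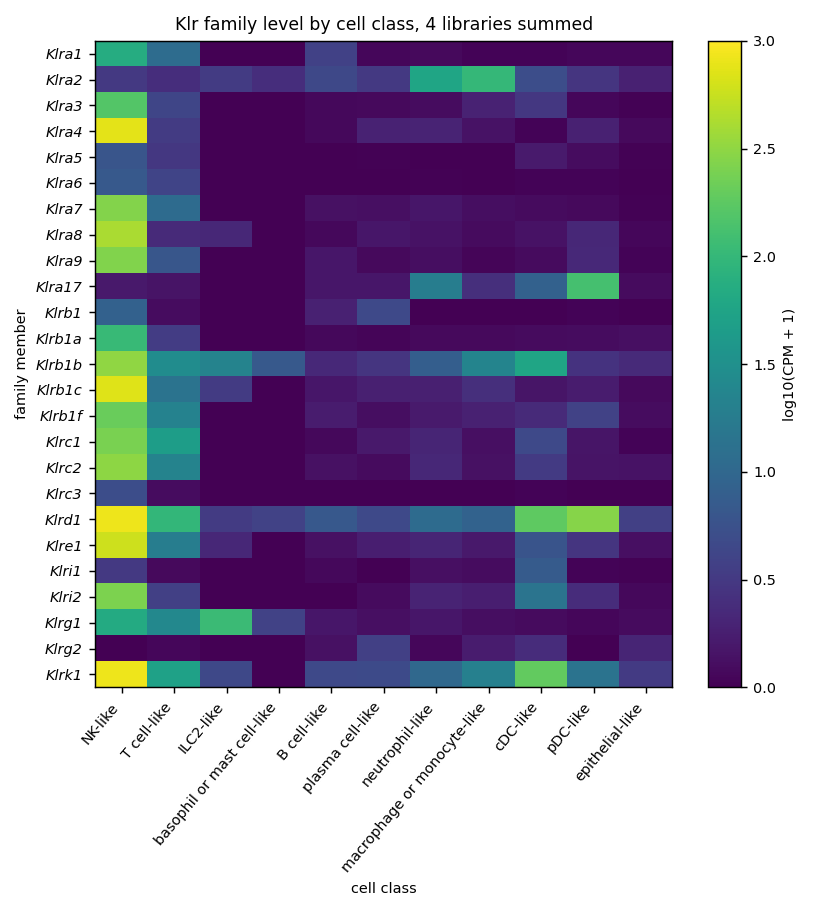
CPM of each member with at least 20 UMIs (rows) in each class of cells (columns), all 4 libraries summed, on a log colour scale. 20 of the 25 members are highest in the NK-like column, and Klra2, Klra17, Klrg1, Klrg2 and Klri1 have their highest level elsewhere.

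Of the 25 members, 20 had their highest CPM in NK-like cells. The exceptions were Klra2 (macrophage or monocyte-like), Klra17 (pDC-like), Klrg1 (ILC2-like), Klri1 (cDC-like) and Klrg2 (plasma cell-like). These ranks are of the 4 libraries summed: the same class was highest in 4 of 4 libraries for Klra17 and Klri1, in 3 for Klrg1 and Klrg2, and in 2 for Klra2. Klrg2 was low even in plasma cell-like cells, at 2.69 CPM against 1.42 CPM in cDC-like cells. The cDC-like cells with Xcr1 or Clec9a UMIs had 3.04 CPM of it (17 UMIs). Most NK-restricted were the activating Ly49 genes, of which NK-like cells held 80.9% of the UMIs for Klra8 and 79.6% for Klra4. NK-like cells held only 17.6% of the UMIs of Klrd1 and 24.7% of those of Klrk1.

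Among the Ly49 genes, Klra4 (Ly49D, an activating receptor that signals through DAP12) was the most abundant in NK-like cells. It stood at 654 CPM in Vehicle, 711 in Vehicle-OVA, 768 in Ribavirin and 891 in Ribavirin-OVA, and its summed level of 744 CPM (721 to 769) was 324-fold (278 to 381) that in T cell-like cells. Klra8 (Ly49H, the activating receptor for the m157 protein of mouse cytomegalovirus) followed at 385, 417, 429 and 411 CPM, likewise 324-fold (263 to 403) over T cell-like cells. Klra8 was nearly level across the 4 libraries, while Klra4 was lowest in Vehicle and highest in Ribavirin-OVA.

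The inhibitory Ly49 genes were lower one by one. Klra7 (Ly49G) stood at 300, 348, 256 and 230 CPM. Klra9 (Ly49I) stood at 282, 272, 272 and 233 CPM, and Klra3 (Ly49C) at 153, 171, 157 and 167 CPM. Both were within a narrow range in all 4 libraries. Klra1 (Ly49A) was more uneven, at 78.1, 54.1, 48 and 121 CPM, with Ribavirin-OVA highest. Klra6 and Klra5 had 5.94 and 5.15 CPM over the class. Summed, the activating pair reached 1039, 1129, 1197 and 1302 CPM, above the inhibitory genes together in each library (834, 854, 745 and 771 CPM). In T cell-like cells the order was the opposite, with 2.04 to 6.15 CPM for the activating pair and 32.7 to 42.3 CPM for the inhibitory genes.

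Of the NKR-P1 genes, Klrb1c (NK1.1, the activating receptor by which C57BL/6 NK cells are stained) was the most abundant, at 750 CPM in Vehicle, 536 in Vehicle-OVA, 721 in Ribavirin and 665 in Ribavirin-OVA. It was 54.4-fold higher in NK-like than in T cell-like cells. The inhibitory Klrb1b, receptor for Clr-b, stood at 266, 513, 283 and 369 CPM, higher in both OVA libraries. Klrb1a went the other way, with 144, 45.4, 110 and 34 CPM, so that both OVA libraries lay below both others. Klrb1f was even, at 219, 179, 210 and 196 CPM. Klrb1 had 7.52 CPM in NK-like cells, and 60% of all its UMIs were in plasma cell-like cells, at 3.64 CPM.

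CD94 and its partners form the next group. Klrd1 (CD94) stood at 945, 677, 856 and 709 CPM. Klrc1 (NKG2A, the inhibitory partner of CD94) stood at 213, 372, 206 and 341 CPM, and Klrc2 (NKG2C, the activating partner) at 288, 277, 293 and 388 CPM. In this set Klrd1 was lower and Klrc1 higher in both OVA libraries than in both libraries without OVA. Klrc3 (NKG2E) had 4.16 CPM. Klre1, which forms dimers with KLRI1 or KLRI2, stood at 651, 450, 609 and 502 CPM. Its activating partner Klri2 stood at 235, 242, 219 and 363 CPM, whereas the inhibitory Klri1 had only 2.18 CPM in NK-like cells and 6.30 CPM (80 UMIs) in cDC-like cells.

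Klrk1 (NKG2D) was close to level, at 893, 807, 820 and 775 CPM. Its summed level of 837 CPM (812 to 862) did not differ from that of Klrd1, 845 CPM (820 to 871), beyond counting error. Klrg1, an inhibitory receptor for cadherins that marks mature NK cells and effector T cells, stood at 88.3, 56.2, 54.1 and 61.2 CPM. Klrg2 had no UMI in NK-like cells, where 3 UMIs would be 0.594 CPM.

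**Figure D2:**
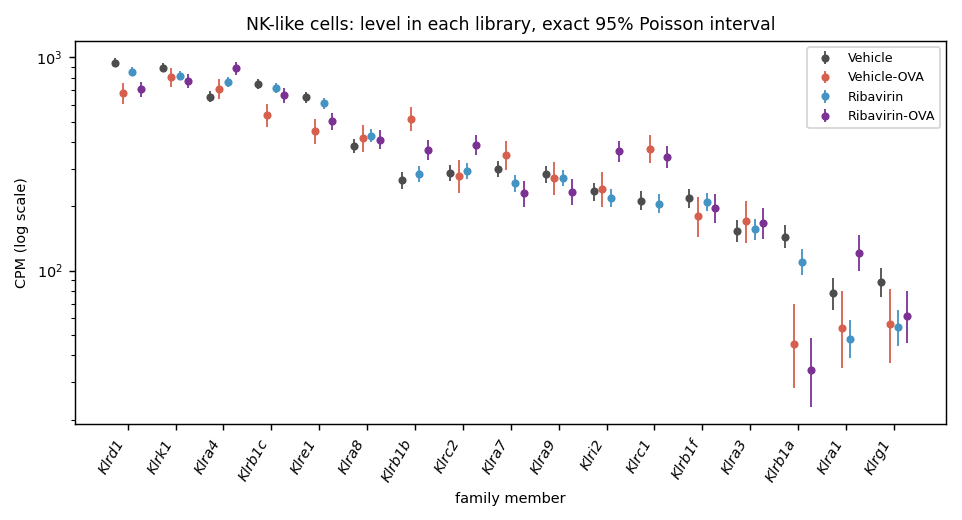
CPM in NK-like cells (log axis) of the members with at least 200 UMIs there, with 1 point per library and bars for the 95% Poisson interval of each count. Klra8 and Klrk1 sit close together in the 4 libraries, while Klrb1a is lower and Klrc1 and Klrb1b are higher in both OVA libraries.

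Shares of cells separated receptors carried by nearly all NK-like cells from those carried by some. A UMI of Klrk1 was found in 92.2% of NK-like cells, of Klrd1 in 89.3%, of Klrb1c in 87.3% and of Klre1 in 79.2%. Klra4 was found in 46%, Klra8 in 39.3%, Klra7 in 38.2%, Klrc1 in 34.7% and Klra9 in 34.5%. With every cell thinned to 1000 UMIs, the shares were 55.7% for Klrk1, 54.3% for Klrd1 and 34.6% for Klra4, and in B cell-like cells, which should lack the receptors, 0%, 0.497% and at most 0.596% for any member. Klra4 was thus found in fewer cells than Klrb1c at a similar level. Ly49 genes are known for such patchy expression, in which each NK cell carries a few of them. Over a panel of 6 Ly49 genes (Klra1, Klra3, Klra4, Klra7, Klra8 and Klra9), 19.2% of NK-like cells had a UMI of none, 18.7% of 1, 25.4% of 2, 24.7% of 3, 10.6% of 4 and 1.5% of 5, and no cell had all 6. Thinned to 1000 UMIs, the mean number per cell was 1.18 in Vehicle, 1.16 in Vehicle-OVA, 1.15 in Ribavirin and 1.29 in Ribavirin-OVA.

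Members were also compared within single cells, in the 1084 NK-like cells with at least 2000 UMIs, each thinned to 2000. Klra4 was found in 12.6% (9.02 to 16.9) of the 294 cells with a Klrc1 UMI and in 53.3% (49.7 to 56.8) of the 790 cells without one. The gap had the same direction in each library: 11.7% against 51.7% in Vehicle, 12.5% against 52.2% in Vehicle-OVA, 11% against 53.3% in Ribavirin and 19.5% against 60.5% in Ribavirin-OVA. The share with Ly49D transcripts was thus lower among cells with NKG2A transcripts in 4 of 4 libraries. Klra8 was likewise found in 19.0% (14.7 to 24) of cells with Klrc1 and 39.2% (35.8 to 42.7) of those without, again in the same direction in each library. Klra9 did not follow, with 31.0% against 28.1%, nor did Klrc2, with 44.6% against 40.5%. Klra7 had 20.4% against 33.2% over all cells, but 29.2% against 30.4% in Vehicle-OVA and 31.7% against 29.6% in Ribavirin-OVA. The activating Ly49 genes went together, as Klra8 was found in 50% (45.3 to 54.7) of the 458 cells with Klra4 and in 21.9% (18.7 to 25.3) of the 626 without. Cells with and without Klrc1 share their libraries, and these intervals treat cells of a library as independent draws.

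**Figure D3:**
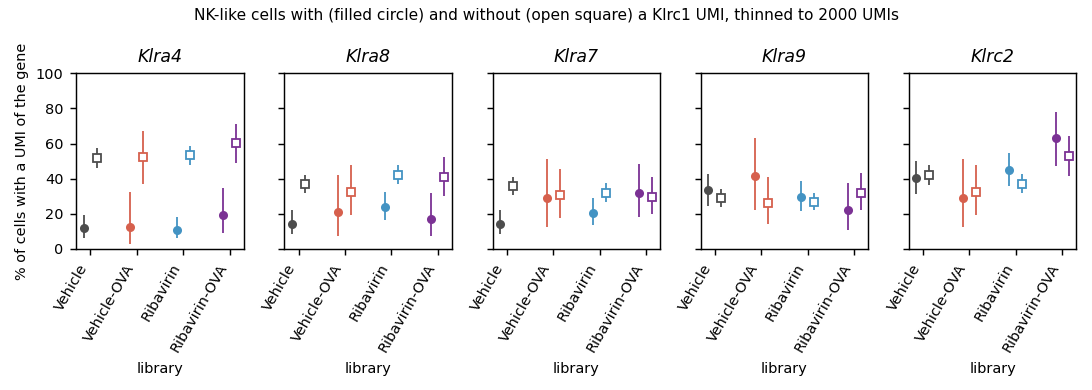
Percent of NK-like cells with a UMI of a gene, in cells with (filled circles) and without (open squares) a Klrc1 UMI, all cells thinned to 2000 UMIs, with 95% Clopper-Pearson intervals. Each panel is 1 gene (Klra4, Klra8, Klra7, Klra9 or Klrc2), and the x axis gives the library. Klra4 is found in 12.6% of cells with Klrc1 and in 53.3% of cells without it over the 4 libraries.

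The OVA comparisons asked how the receptors of NK-like cells differed in mice with allergic rhinitis. Of 21 members with at least 20 UMIs in NK-like cells, 3 differed by more than 2-fold on the log2(CPM + 1) scale between Vehicle-OVA and Vehicle, all lower (Klrb1a, Klrb1 and Klra5), where 22.8% of all 9447 genes did so in either direction and 7.88% were lower. Between Ribavirin-OVA and Ribavirin, 3 did so (Klra1 and Klra5 higher, Klrb1a lower), against 16.1% of all genes, with 10.7% higher and 5.41% lower. The median log2 ratio of all genes was 0.28 and 0.24 in these comparisons, and that of the 21 members was −0.15 and 0.11. Members lay on both sides of the median gene. Klra5 and Klrb1 rested on few molecules: Klra5 had 15 UMIs in Vehicle and 0 in Vehicle-OVA, where 3 UMIs would be 6.49 CPM, and Klrb1 had 13 and 1.

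Klrb1a was the member with the same large difference in both OVA comparisons. Its CPM in Vehicle-OVA was 0.315-fold (0.191 to 0.491) that in Vehicle, and in Ribavirin-OVA 0.310-fold (0.204 to 0.455) that in Ribavirin, which is −1.92 and −1.90 on the log2 scale relative to the median gene. It counted 255 UMIs in 155 cells of Vehicle and 21 UMIs in 15 cells of Vehicle-OVA. Klrd1 was 0.716-fold (0.633 to 0.809) and 0.829-fold (0.755 to 0.910), and Klre1 0.691-fold (0.593 to 0.802) and 0.825-fold (0.738 to 0.921), both short of 2-fold. Klrb1c was 0.716-fold (0.622 to 0.82) between the vehicle groups and 0.923-fold (0.837 to 1.02) between the ribavirin groups, where its interval includes 1.

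The inhibitory Klrc1 and Klrb1b had the opposite direction. Klrc1 was 1.75-fold (1.45 to 2.10) in Vehicle-OVA over Vehicle and 1.65-fold (1.42 to 1.93) in Ribavirin-OVA over Ribavirin, or 0.53 and 0.49 on the log2 scale above the median gene. Klrb1b was 1.93-fold (1.64 to 2.26) and 1.30-fold (1.13 to 1.5), or 0.67 and 0.15 above the median gene. In the thinned cells, the share with a Klrc1 UMI was 25.1% in Vehicle, 34.3% in Vehicle-OVA, 26.2% in Ribavirin and 33.6% in Ribavirin-OVA, higher in both OVA libraries than in both others, as the level was. Klra8 (1.08-fold and 0.96-fold) and Klrk1 (0.904-fold, 0.805 to 1.01, and 0.945-fold, 0.863 to 1.03) were close to 1.

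**Figure D4:**
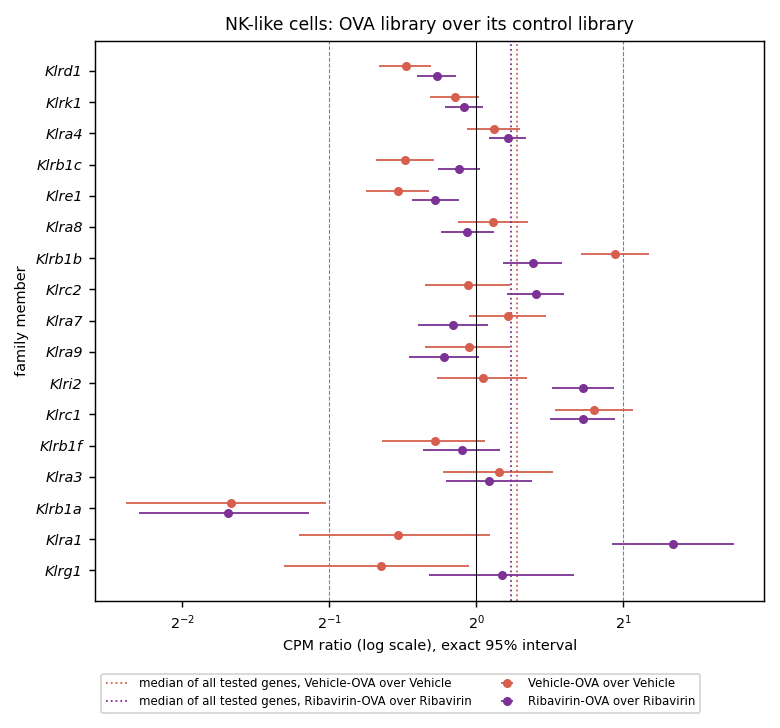
CPM ratio in NK-like cells (log axis) of each member with at least 200 UMIs there, Vehicle-OVA over Vehicle and Ribavirin-OVA over Ribavirin. Bars are exact 95% conditional binomial intervals, and dotted lines mark the median ratio of all genes tested. Klra5 and Klrb1, with fewer UMIs, are not drawn. Klrb1a lies near 0.315 and 0.310 in the 2 comparisons, and Klrc1 lies above 1 in both.

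For other members the vehicle and ribavirin arms gave different values. Klra1 was 0.692-fold (0.433 to 1.07) in Vehicle-OVA over Vehicle and 2.53-fold (1.90 to 3.38) in Ribavirin-OVA over Ribavirin. With Leiden clusters as classes the latter was 0.45 on the log2 scale in place of 1.32, short of 2-fold. Klri2 was 1.03-fold (0.829 to 1.27) and 1.65-fold (1.43 to 1.92), Klrc2 0.963-fold (0.787 to 1.17) and 1.32-fold (1.15 to 1.52), and Klrg1 0.637-fold (0.403 to 0.969) and 1.13-fold (0.798 to 1.58). With 1 library a group, whether the arms differ beyond the spread between animals could not be tested.

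Ribavirin alone differed least. Of the 21 members, 1 (Klra5, 4 UMIs against 15) was past 2-fold between Ribavirin and Vehicle, where 3.96% of all genes were. Klra1 and Klrg1 were each 0.61-fold (0.47 to 0.80 and 0.47 to 0.79), Klrb1a 0.76-fold (0.63 to 0.92) and Klra4 1.17-fold (1.09 to 1.27). Between Ribavirin-OVA and Vehicle-OVA, 4 members were past 2-fold, all higher (Klra1, 2.24-fold, 1.44 to 3.62, and the rarely counted Klra5, Klrb1 and Klrc3), against 12.5% of all genes in either direction and 7.25% higher. Here Klri2 was 1.5-fold (1.20 to 1.87), Klrc2 1.40-fold (1.14 to 1.73), Klra7 0.66-fold (0.53 to 0.82) and Klrb1b 0.72-fold (0.61 to 0.86). Each library enters 2 of the 4 comparisons, so these are not independent of one another.

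Of 34 adaptors, phosphatases, ligands and NK cell transcription factors listed for the receptors, 29 were found and 20 had at least 20 UMIs in NK-like cells. In Vehicle-OVA over Vehicle 3 of these were more than 2-fold higher and 2 lower, and in Ribavirin-OVA over Ribavirin 2 were higher and 1 lower, where 14.9% and 7.88% of all genes, and 10.7% and 5.41%, were. Tyrobp, which encodes DAP12, stood at 2315 CPM in Vehicle, 763 in Vehicle-OVA, 2053 in Ribavirin and 806 in Ribavirin-OVA, 0.33-fold (0.295 to 0.368) and 0.392-fold (0.362 to 0.425) with OVA. Tyrobp was also lower with OVA in cells that hold little of it, at 223 and 76.1 CPM in B cell-like cells of Vehicle and Vehicle-OVA, and in neutrophil-like cells, at 4967 and 1506 CPM. The part of RNA from other cells in the NK-like value was not tested. Hcst (DAP10, the adaptor of NKG2D) stood at 603, 355, 571 and 366 CPM and Fcer1g at 2109, 934, 1779 and 995 CPM, in the same direction. Neither difference was limited to the NK-like class. Neutrophil-like cells had 3546, 1246, 2501 and 1225 CPM of Fcer1g. Its T cell-like, B cell-like, macrophage or monocyte-like and pDC-like values were also lower with OVA in both arms. T cell-like cells had 595, 395, 538 and 376 CPM of Hcst. B cell-like, neutrophil-like and macrophage or monocyte-like cells had less Hcst with OVA in both arms, pDC-like cells in the vehicle arm only.

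Of the ligands, the class I gene H2-D1 stood at 2165, 1332, 2176 and 1503 CPM in NK-like cells of Vehicle, Vehicle-OVA, Ribavirin and Ribavirin-OVA, and H2-K1 at 2351, 2422, 2303 and 2380 CPM. H2-T23, which encodes Qa-1, stood at 312, 238, 297 and 210 CPM. H2-K1 was thus level where H2-D1 and H2-T23 were lower with OVA. The lower H2-D1 and H2-T23 were not particular to NK-like cells. In T cell-like cells H2-D1 stood at 2239, 1709, 2191 and 1799 CPM and H2-T23 at 460, 389, 486 and 397 CPM. Both were also lower with OVA in B cell-like, neutrophil-like, macrophage or monocyte-like and pDC-like cells. Cdh1, the E-cadherin ligand of KLRG1, stood at 219, 500, 121 and 344 CPM in epithelial-like cells. It was higher with OVA in other classes too, at 5.66, 34.6, 2.06 and 21.5 CPM in NK-like cells. In macrophage or monocyte-like cells it stood at 2.13, 105, 4.85 and 71.1 CPM. T cell-like, neutrophil-like and pDC-like cells had the same direction in both arms, and B cell-like cells in the vehicle arm only. Among the transcription factors, Eomes (also a marker of the class) stood at 265, 502, 324 and 590 CPM in NK-like cells, Tcf7, a factor needed for normal Ly49A expression, at 96.2, 301, 135 and 239 CPM, and Tbx21 at 133, 123, 125 and 187 CPM. Eomes and Tcf7 were higher with OVA in T cell-like cells too. Eomes stood there at 10.4, 32.1, 8.78 and 34.1 CPM, and Tcf7 at 138, 321, 116 and 231 CPM.

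Among T cell-like cells, the NKG2 genes and Klrb1b were higher with OVA. Klrc1 stood at 26.1 CPM in Vehicle, 128 in Vehicle-OVA, 33.6 in Ribavirin and 72.8 in Ribavirin-OVA, which is 4.92-fold (4.47 to 5.41) and 2.16-fold (1.96 to 2.39) with OVA. Klrb1b stood at 16.9, 55.4, 27.2 and 39.5 CPM (3.28-fold, 2.87 to 3.73, and 1.45-fold, 1.28 to 1.64), and Klrc2 at 15.3, 44, 16.8 and 27.8 CPM (2.87-fold, 2.49 to 3.31, and 1.65-fold, 1.42 to 1.92). All 3 were higher in both OVA libraries than in both others. Klrg1 stood at 19.3, 37, 17.3 and 42.9 CPM (1.92-fold, 1.66 to 2.22, and 2.48-fold, 2.17 to 2.83). Klrd1, at 103, 134, 80.1 and 88.9 CPM, differed less (1.31-fold, 1.22 to 1.41, and 1.11-fold, 1.03 to 1.2), and Klrk1, at 53.9, 53.2, 51.4 and 38.3 CPM, was not higher in either OVA library.

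Of the 21 members with at least 20 UMIs in T cell-like cells, 5 were past 2-fold between Vehicle-OVA and Vehicle, 4 higher (Klrc1, Klrb1b, Klrc2 and Klri2) and 1 lower (Klra5), against 14.7% of 13488 genes, with 12.0% higher and 2.71% lower. Between Ribavirin-OVA and Ribavirin 2 were, both higher (Klrc1 and Klrg1), against 11.7%, with 8.95% higher. The median log2 ratio of all genes was 0.34 in both comparisons, and against it Klrc1 was 1.92 and 0.75 higher and Klrg1 0.57 and 0.92 higher. Without OVA, 1 member (Klra4) was past 2-fold between Ribavirin and Vehicle, against 0.89% of genes, and with OVA 3 were, against 2.58%.

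T cell-like cells were split by their UMIs into 2329 cells with Cd8, 5183 with Cd4 and no Foxp3, 1146 with Foxp3 and 3991 with neither Cd4 nor Cd8. CD94, NKG2A and NKG2D transcripts were highest in Cd8 cells: Klrd1 stood at 261 CPM there against 34 in Cd4 cells and 12.2 in Foxp3 cells, Klrc1 at 130 against 22.4 and 7, and Klrk1 at 123 against 17.5 and 9.83. Klrg1 had another order, with 123 CPM in Foxp3 cells, 17.4 in Cd8 cells and 12 in Cd4 cells. The inhibitory Klra1 (30.6 CPM) and Klra7 (26.9 CPM) were highest in the cells with neither.

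The difference of Klrc1 was present in the 3 subsets other than Foxp3 cells, where it had 47 UMIs in all. In Cd8 cells it stood at 83.1, 293, 92.2 and 169 CPM (3.53-fold, 3.10 to 4.03, and 1.84-fold, 1.60 to 2.11). In Cd4 cells it stood at 11.4, 65, 18.3 and 31.3 CPM, and in cells with neither at 24.6, 92.8, 24.6 and 76.9 CPM. Both OVA libraries were above both others in each of the 3. Klrb1b in Cd8 cells stood at 20.1, 113, 46.2 and 85.7 CPM. Klrd1 in Cd8 cells stood at 309, 343, 205 and 207 CPM (1.11-fold and 1.01-fold), so that NKG2A was higher without more of its partner CD94. Klrg1 was higher with OVA in Foxp3 cells, at 118, 247, 82.3 and 183 CPM (2.10-fold, 1.71 to 2.57, and 2.22-fold, 1.80 to 2.74), and in Cd4 cells, at 5.97, 22.6, 3.48 and 36.5 CPM.

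Outside these classes, single members stood out. In ILC2-like cells, 195 in number, Klrg1 made up 94 of the family's UMIs and reached 110 CPM (88.9 to 134.6), 1.63-fold (1.28 to 2.05) its level in NK-like cells with the libraries summed. By library it stood at 55.2, 108, 115 and 188 CPM, with only 25 to 70 cells each, and in Vehicle it lay below the 88.3 CPM of NK-like cells. ILC2-like cells were highest among whole classes only, as the Foxp3 subset of T cell-like cells had 123 CPM (114 to 131) of Klrg1. Klrb1b was next with 18 UMIs, and Klrd1, Klrk1, Klra2, Klrb1c, Klra8 and Klre1 had 1 to 3 UMIs each.

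Klra2 (Ly49B), an inhibitory receptor known from myeloid cells, was the family's main transcript in macrophage or monocyte-like cells. It stood at 128 CPM in Vehicle, 52.6 in Vehicle-OVA, 117 in Ribavirin and 45.8 in Ribavirin-OVA, 0.409-fold (0.383 to 0.437) and 0.39-fold (0.363 to 0.42) with OVA. Klrk1 followed the same direction from a lower level, at 26.7, 7.47, 22.6 and 7.32 CPM. Of 19 members with at least 20 UMIs there, 3 were more than 2-fold lower in Vehicle-OVA (Klra2, Klrk1 and Klrd1) against 2.38% of 14010 genes, and 2 in Ribavirin-OVA (Klra2 and Klrk1) against 2.21%. Split by the complement gene C1q, Klra2 stood at 119, 42.6, 110 and 38.4 CPM in the cells with C1q UMIs and at 206, 130, 166 and 125 CPM in those without. Klra2 was thus lower with OVA in both subsets, by less in the cells without C1q (0.633-fold, 0.555 to 0.72, and 0.751-fold, 0.641 to 0.876). In neutrophil-like cells it did not follow, at 46.1, 72.1, 48.8 and 50.4 CPM, where 1 of 18 members was past 2-fold between Vehicle-OVA and Vehicle against 24.2% of genes. The make-up of that class differed, with Siglecf UMIs in 2583 of its cells in Vehicle and 923 in Vehicle-OVA. Klra2 stood at 17.5, 35.4, 22.1 and 18.3 CPM in neutrophil-like cells with Siglecf and at 67.3, 76.0, 58.9 and 61.6 CPM in those without.

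Dendritic cell-like cells carried members without the Ly49 set of NK-like cells. In pDC-like cells Klra17 (Ly49Q, which pDCs of C57BL/6 mice are known to carry) stood at 131, 124, 110 and 158 CPM, and its summed 128 CPM (122 to 133) was 7.28-fold (6.82 to 7.77) that in neutrophil-like cells. Klrd1 stood at 316, 270, 257 and 251 CPM in the same cells, where Klrk1 had 12.7 CPM. In cDC-like cells Klrk1 stood at 208, 185, 182 and 158 CPM and Klrd1 at 209, 161, 151 and 180 CPM. The cDC-like cells with Cd209a had more Klrd1 than those with Xcr1 or Clec9a, at 330 against 55.7 CPM, whereas Klrk1 was equal in both, at 188 and 189 CPM. Klra17 was found with Cd209a too, at 15.1 against 0.893 CPM. Klrc1 had 0, 2 and 1 UMIs in cDC-like cells of Vehicle, Vehicle-OVA and Ribavirin and 43 in Ribavirin-OVA, or 22.2 CPM.

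Few of the dendritic members had enough molecules for a ratio. Of 9 members in pDC-like cells, 4 were more than 2-fold lower in Vehicle-OVA (Klra2, Klra9, Klrb1f and Klre1) against 2.87% of 11288 genes, and 3 in Ribavirin-OVA (Klra2, Klrb1b and Klrb1f) against 3.4%, each with at most 3 UMIs in the OVA library. Klrd1 and Klra17, which carry most of the family's molecules there, were not among them. The members called reached 20 UMIs through other libraries than the one where they were low. Their number follows in part from that filter and says little beside the share of all genes. Of 11 members in cDC-like cells, 3 were past 2-fold in Vehicle-OVA (Klra3, Klrc1 and Klrc2), 2 higher and 1 lower. Of 10904 genes 20.5% were, with 15.7% higher and 4.86% lower. In Ribavirin-OVA 4 were (Klra2, Klrc1, Klrc2 and Klre1), 2 higher and 2 lower, against 18.0%, with 15.2% higher and 2.84% lower. The Klrc1 call in Vehicle-OVA rests on the few UMIs given above. Klrc1 reached 20 UMIs in this class only through Ribavirin-OVA, so its higher call there follows from the filter.

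**Figure D5:**
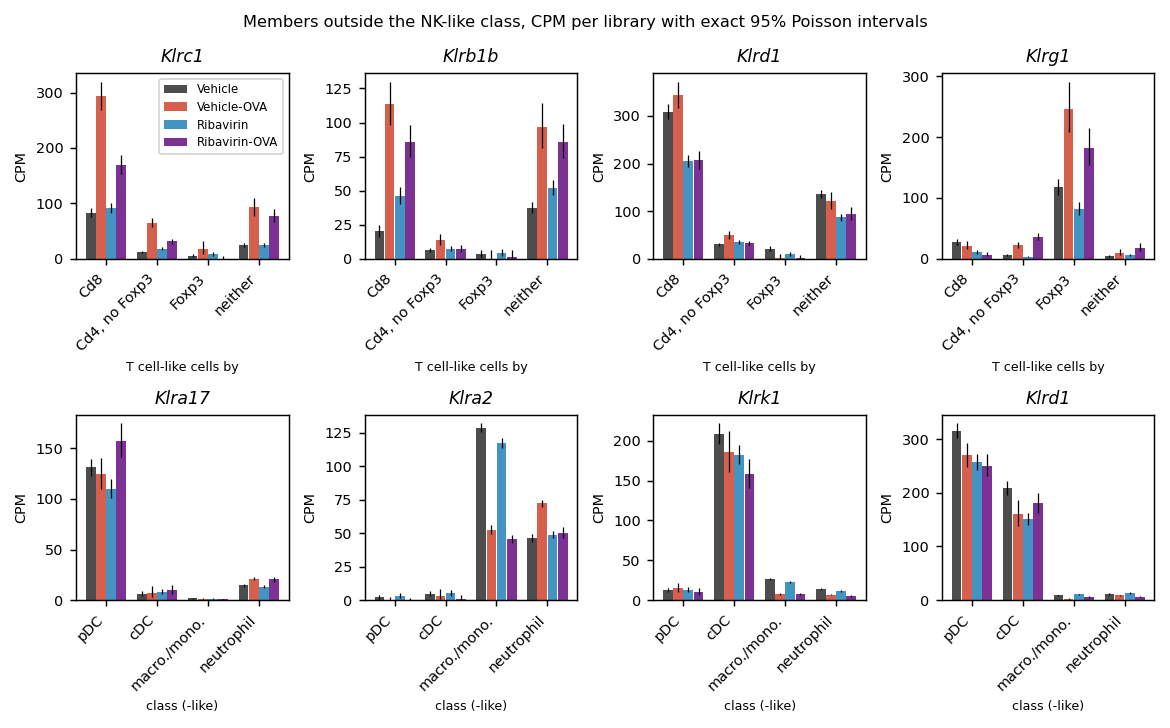
CPM per library (bars) with 95% Poisson intervals, for Klrc1, Klrb1b, Klrd1 and Klrg1 in subsets of T cell-like cells (upper panels) and for Klra17, Klra2, Klrk1 and Klrd1 in 4 myeloid and dendritic classes (lower panels). Klra2 in macrophage or monocyte-like cells is at 128 and 117 CPM without OVA and at 52.6 and 45.8 CPM with it, and Klrc1 in Cd8 cells is at 83.1 and 92.2 CPM without OVA and at 293 and 169 CPM with it.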

How the data were processed

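CD45+ cells of nasal mucosa were profiled in 4 droplet libraries, and the deposited matrices hold whole-number UMI counts per gene and barcode, made by the authors with Cell Ranger 5.0.0 on mm10 per the submitters' processing notes, with no normalization. The annotation release is not given in the sources used here. Total counts were 171873110 in Vehicle, 102796247 in Vehicle-OVA, 168064152 in Ribavirin and 91742940 in Ribavirin-OVA.

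A barcode was kept from 200 genes and 500 UMIs upward if mitochondrial UMIs made up less than 10%. The barcodes with the highest Scrublet-type doublet scores (scanpy 1.11.5) were removed up to an expected rate of 0.4% per 1000 barcodes (4.12 to 11.3% by library). The automatic threshold had marked 0.328% of Ribavirin-OVA, which is too few for such a caller to have worked. A cell took the class of which it had the most markers, with at least 2 of 6, and ties were unassigned. T cell-like, dendritic and other classes were split by the genes named in the text.

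Within a library, the UMIs of all cells of a class were added up and scaled to CPM. Ratios are of CPM, calls are beyond 2-fold on log2(CPM + 1) among genes with at least 20 UMIs in the class, and intervals are exact Poisson, Clopper-Pearson and conditional binomial intervals at 95%. UMIs of cells from 1 library are not independent draws of animals. With 1 library per group no test was made. All members with at least 20 UMIs are named, with partner genes from a list. The members and lists were chosen with earlier results of these data known. Scripts were tested on simulated data. Software was Python 3.11.15, numpy 2.4.6, scipy 1.17.1, pandas 2.3.3 and MAFFT 7.526. Promoters came from RefSeq (GRCm38.p6), where Klrd1, Klri2 and Klrg1 were not matched, and 3' ends and positions from GENCODE M21. Alternatives were other limits on mitochondrial UMIs (5% and 20%), UMIs and markers, doublets kept, Leiden clusters as classes, mean single-cell CPM, a pseudocount of 10 and a minimum of 50 UMIs. An automatic doublet threshold and NK-like cells with Cd3 UMIs allowed were added after seeing the data.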

Additional observations from a re-analysis of the deposited data

Results flagged for a closer look

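In 5 cases the OVA library lay on opposite sides of its control in the vehicle and ribavirin arms, with both counting intervals clear of 1. With 1 library per group these differences between the arms were not tested. The cases were picked out of all members compared, and the share of all genes doing the same was not counted. The ratios are not taken relative to the median gene, which was at 0.34 in both arms in T cell-like cells and at 0.33 and 0.40 in cDC-like cells. Against it, Klra7 and Klrd1 below were not on opposite sides, as both lay under the median gene in each arm. In T cell-like cells the log2 ratio of Klra4 was 0.69 in Vehicle-OVA over Vehicle and −0.96 in Ribavirin-OVA over Ribavirin, that of Klra7 0.33 and −0.33, and that of Klri2 1.16 and −0.67. In T cell-like cells Klra4 reached only 1.02 to 4.24 CPM, against 654 to 891 CPM in NK-like cells. In cDC-like cells the log2 ratio of Klrd1 was −0.38 and 0.25, and in macrophage or monocyte-like cells that of Klra3 was −0.46 and 0.54.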

How the results depend on the processing

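Every count of members past 2-fold rests on 1 library per group, and the 76 NK-like cells of Vehicle-OVA limit the precision of the vehicle comparison. No paired analysis was possible because each group has 1 library and the labels carry no replicate numbers, and no replicate could be left out for the same reason. The number of members with at least 20 UMIs was 25 under every alternative run for it. The number of members highest in NK-like cells was 20, and 19 with Leiden clusters as classes.

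The share of family UMIs in NK-like cells, 27.5%, was 28.1% with the 5% mitochondrial limit, 24.7% with doublets kept, 24.1% with 3 markers required, 44.4% with Leiden clusters, and, among alternatives chosen after seeing the data, 26.0% with the automatic doublet threshold and 31.9% with Cd3 UMIs allowed. The Leiden cluster holds T cell-like cells as well. Of the counts past 2-fold in NK-like cells, that for Vehicle-OVA over Vehicle went from 3 to 1 with a pseudocount of 10 and with at least 50 UMIs, that for Ribavirin-OVA over Ribavirin from 3 to 5 with the 5% mitochondrial limit and with mean single-cell CPM, that for Ribavirin over Vehicle from 1 to 0 with Leiden clusters, a pseudocount of 10 and at least 50 UMIs, and that for Ribavirin-OVA over Vehicle-OVA from 4 to 1 with a pseudocount of 10 and with at least 50 UMIs. The last 2 alternatives leave out or shrink genes of few UMIs.

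Of 84 single ratios, 32 moved beyond their counting interval with Leiden clusters and 3 to 6 with the 5% mitochondrial limit, 3 markers, mean single-cell CPM or Cd3 UMIs allowed. A pseudocount of 10 and a minimum of 50 UMIs were run for the counts and not for single ratios. Over the 9 alternatives run for them, the log2 ratio of Klrb1a ranged from −1.87 to −1.35 (vehicle arm) and from −1.71 to −1.28 (ribavirin arm), and that of Klrc1 from 0.78 to 1.32 and from 0.70 to 0.95. For Klra4 in Vehicle-OVA over Vehicle it ranged from −0.29 to 0.17. Klrb1b ranged from 0.47 to 1.11 and from 0.024 to 0.64. Klra1 ranged from 0.45 to 1.63 in Ribavirin-OVA over Ribavirin and from 0.31 to 1.17 in Ribavirin-OVA over Vehicle-OVA, with both lowest values from Leiden clusters and short of 2-fold.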
